A study of Mus musculus with 9 samples.

Results

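Mouse chromosome 11 held 1385 of the 17641 windows (7.85%) in a table of ChIP-seq signal from 2 pancreatic endocrine cell lines, betaTC3 and alphaTC1. The windows were taken by their chromosome, and the chromosome was singled out because its windows were low in betaTC3 relative to alphaTC1 cells with an empty vector. That contrast therefore describes the windows below and tests nothing about them. Of the 1385 windows, 955 had a mean of at least 100 scaled reads over the 6 libraries and are called strong windows here, and 430 lay below that level. The windows were assigned to 1141 genes, 5 windows to a pair of genes each, and 913 (65.9%) lay within 1 kb of a gene start, against 65.5% of all windows.

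The 3 groups were untreated betaTC3 cells, alphaTC1 cells on day 5 of transduction with an shRNA (short hairpin RNA) against Smndc1, a splicing factor (the knockdown), and alphaTC1 cells on day 5 with an empty vector, with 2 libraries each. BetaTC3 is a murine beta cell line and alphaTC1 a murine alpha cell line. Both lines came from tumours of transgenic mice in which a hormone gene promoter drives the SV40 T antigen, the insulin promoter for betaTC3 and the glucagon promoter for alphaTC1. All 6 libraries were precipitated with an antibody against H3K9me3 from Active Motif, and the 3 input samples were not analysed here except through the authors' peak calls. No vector is given for betaTC3, so line and transduction cannot be told apart in betaTC3 minus alphaTC1. Whether the replicates were grown apart is not stated, and p-values then measure only the spread between these libraries, which may be technical.

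Trimethylation of lysine 9 on histone H3 is known as a mark of silent heterochromatin, laid down by SUV39H and SETDB1 enzymes and read by HP1 proteins, and it covers repeats, clustered zinc finger genes and the region around centromeres. Active genes instead carry other marks at their starts, which as a rule lie in CG-rich DNA. ChIP signal in a window grows with the occupancy of the target and with the number of DNA copies of the locus in the cells. In these values occupancy and copy number cannot be told apart.

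The libraries held 4530066 to 9924487 reads in windows, and each value was a whole number of reads multiplied by 1 step per library (scaled reads). Several line markers differed between the lines and others less so. The window at Ins1, an insulin gene, held 354 and 314 scaled reads in betaTC3 and 0 to 1.32 in the 4 alphaTC1 libraries, and that at Gcg, the glucagon gene, held 0 in both betaTC3 libraries and 340 to 421 in alphaTC1. Nkx6-1, a beta cell factor, held 1223 and 1135 in betaTC3, 698 and 952 in the knockdown, and 1068 and 1129 in the empty vector, and Irx2, an alpha cell factor, held 311 and 246 in betaTC3 and 546 to 759 in alphaTC1. Pdx1 and Mafa, beta cell factors, held 1269 to 1840 in betaTC3 and 0 to 11.9 in alphaTC1. Irx1 and Pou3f4, alpha cell factors, held 0 to 1.90 in betaTC3 and 284 to 1270 in alphaTC1. Sst, a delta cell hormone gene, held 107 and 93.3 in betaTC3 and 0 to 2.65 in alphaTC1. At Ins1 and Gcg, each line had signal at the one it is known to express and little or none at the other line's, and the windows of both lines lay mostly at gene starts. This goes against what is known of H3K9me3, so the values are called ChIP signal of the libraries labelled H3K9me3 and not a level of the mark. On chromosome 11, Sox9, a duct and progenitor factor, held 3.99 and 4.76 scaled reads in betaTC3 and 465 to 601 in alphaTC1, and Col1a1, a fibroblast collagen, held 16.8 and 33.3 in betaTC3 and 69.2 to 82.5 in alphaTC1. Ptprc, Pecam1, Cpa1, Ptf1a and Krt19, markers of leukocytes, endothelium, acinar and duct cells, had no window within 2 kb. The betaTC3 replicates differed more than the others, with a chi-square per degree of freedom over windows of 13.1, against 1.98 between knockdown and 1.67 between empty-vector replicates.

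The sequences at the gene starts show what kind of DNA the windows sit beside. Among the 913 windows within 1 kb of a gene start, 680 (74.5%) matched by symbol to a RefSeq promoter of build GRCm38.p6, which runs from 250 bases before to 50 after the start. The centre of the window lay downstream of the start for 578 of the 680 (85.0%), and the median over all 680 was 236 bases into the gene. These promoters held a median of 23 CG dinucleotides in 300 bases, against 7 over all 32851 promoters of the table and 10 over all promoters of chromosome 11. GGGCGG, a GC box, was found on either strand in 72.1% of them against 35.7% of all promoters, CCAAT in 39.4% against 37.4%, and TATAAA in 5.59% against 13.6%. Matches of different motifs may overlap, and a match is a description of letters only.

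The first 4 promoters come from either side of the places where the level of chromosome 11 stepped, described below. Ccnjl (cyclin J-like) and Pwwp2a (a reader of the histone variant H2A.Z) flank the first step. Rad51c (a recombination repair protein) and Mrps23 (a mitochondrial ribosomal protein) lie on either side of the second, Mrps23 not next to it but farther into the distal segment. Capitals mark CG dinucleotides, and each sequence runs 5′ to 3′ on the gene's strand.
Ccnjl, chr11:43528499-43528798, plus strand: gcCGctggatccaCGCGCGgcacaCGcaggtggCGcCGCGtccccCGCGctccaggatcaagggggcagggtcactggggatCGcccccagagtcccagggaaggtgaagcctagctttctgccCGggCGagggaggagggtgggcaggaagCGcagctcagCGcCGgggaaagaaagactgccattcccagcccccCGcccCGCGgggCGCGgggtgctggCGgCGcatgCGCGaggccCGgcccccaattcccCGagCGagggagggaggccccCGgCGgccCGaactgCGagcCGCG
Pwwp2a, chr11:43681748-43682047, plus strand: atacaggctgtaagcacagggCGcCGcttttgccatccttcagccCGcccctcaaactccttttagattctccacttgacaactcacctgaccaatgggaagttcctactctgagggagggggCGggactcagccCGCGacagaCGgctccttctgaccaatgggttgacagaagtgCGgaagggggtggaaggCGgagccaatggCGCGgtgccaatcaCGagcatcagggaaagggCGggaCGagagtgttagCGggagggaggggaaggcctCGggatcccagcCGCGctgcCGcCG
Rad51c, chr11:87404457-87404756, minus strand: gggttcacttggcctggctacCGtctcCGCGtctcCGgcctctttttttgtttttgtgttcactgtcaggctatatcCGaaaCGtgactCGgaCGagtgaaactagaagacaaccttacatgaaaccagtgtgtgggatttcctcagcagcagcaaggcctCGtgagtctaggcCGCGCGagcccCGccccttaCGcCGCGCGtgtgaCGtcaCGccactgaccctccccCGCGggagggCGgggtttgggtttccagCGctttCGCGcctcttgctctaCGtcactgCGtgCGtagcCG
Mrps23, chr11:88204138-88204437, plus strand: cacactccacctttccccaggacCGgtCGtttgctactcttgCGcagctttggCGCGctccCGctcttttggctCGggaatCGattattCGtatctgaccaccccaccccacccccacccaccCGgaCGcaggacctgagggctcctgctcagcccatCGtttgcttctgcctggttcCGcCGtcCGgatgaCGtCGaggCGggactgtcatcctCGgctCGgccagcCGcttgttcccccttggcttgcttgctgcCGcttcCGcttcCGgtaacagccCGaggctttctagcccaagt
These 4 promoters held 34, 20, 29 and 25 CG dinucleotides in that order. The next 3 belong to strong gene-start windows that represent the segments, Nf2 (the tumour suppressor merlin), Eif4a1 (a translation initiation helicase) and Rpl19 (a large-subunit ribosomal protein).
Nf2, chr11:4849495-4849794, minus strand: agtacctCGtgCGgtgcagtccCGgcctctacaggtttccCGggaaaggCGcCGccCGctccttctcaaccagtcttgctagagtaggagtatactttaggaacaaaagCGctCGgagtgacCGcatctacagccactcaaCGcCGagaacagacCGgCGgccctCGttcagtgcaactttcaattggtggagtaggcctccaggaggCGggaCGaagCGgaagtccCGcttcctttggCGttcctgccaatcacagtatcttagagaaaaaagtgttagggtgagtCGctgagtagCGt
Eif4a1, chr11:69672374-69672673, minus strand: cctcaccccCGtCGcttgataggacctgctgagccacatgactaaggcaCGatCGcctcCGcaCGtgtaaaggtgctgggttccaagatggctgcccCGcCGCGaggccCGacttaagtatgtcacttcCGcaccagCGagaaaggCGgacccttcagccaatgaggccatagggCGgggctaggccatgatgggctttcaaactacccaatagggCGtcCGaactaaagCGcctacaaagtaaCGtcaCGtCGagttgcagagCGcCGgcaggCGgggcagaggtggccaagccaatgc
Rpl19, chr11:98026674-98026973, plus strand: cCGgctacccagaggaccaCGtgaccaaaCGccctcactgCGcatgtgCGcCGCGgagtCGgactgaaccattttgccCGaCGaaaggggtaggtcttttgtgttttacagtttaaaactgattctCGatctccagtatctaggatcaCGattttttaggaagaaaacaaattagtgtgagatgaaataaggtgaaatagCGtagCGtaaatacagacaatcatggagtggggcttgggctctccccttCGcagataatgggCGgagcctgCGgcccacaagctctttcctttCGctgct
They held 22, 23 and 18 CG dinucleotides. The last pair belongs to windows that stood far off their surroundings, Lhx1 (a LIM homeobox factor) and Arhgap44 (a GTPase-activating protein).
Lhx1, chr11:84525485-84525784, minus strand: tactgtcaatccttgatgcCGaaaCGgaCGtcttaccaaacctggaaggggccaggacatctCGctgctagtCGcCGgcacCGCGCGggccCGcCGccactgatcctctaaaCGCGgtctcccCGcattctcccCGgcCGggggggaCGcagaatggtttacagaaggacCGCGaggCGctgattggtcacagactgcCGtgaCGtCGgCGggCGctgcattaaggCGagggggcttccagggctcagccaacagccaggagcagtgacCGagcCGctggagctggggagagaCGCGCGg
Arhgap44, chr11:65162912-65163211, minus strand: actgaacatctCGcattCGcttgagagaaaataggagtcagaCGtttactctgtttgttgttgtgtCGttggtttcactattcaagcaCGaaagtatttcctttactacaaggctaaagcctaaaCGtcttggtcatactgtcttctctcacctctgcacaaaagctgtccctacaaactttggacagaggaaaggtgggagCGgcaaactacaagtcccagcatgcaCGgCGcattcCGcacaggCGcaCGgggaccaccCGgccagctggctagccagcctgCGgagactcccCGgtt
They held 31 and 15 CG dinucleotides.

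Chromosome 11 as a whole was low in betaTC3. The median log2 change of its strong windows, betaTC3 minus empty vector, was -0.73, with the 4 pairs of 1 betaTC3 and 1 empty-vector library between -0.89 and -0.63. The strong windows of all other chromosomes had a median of -0.11, and all strong windows together one of -0.15. Of the 20 chromosomes it had the lowest median, followed by chromosome 7 at -0.59, while chromosome 14 stood at 0.64 and chromosome 12 at 0.42. The share of all window reads is another measure, summed over strong and weak windows and free of fitted changes. Chromosome 11 windows took 8.47% and 8.61% of the reads of the betaTC3 libraries, 12.5% of each knockdown library, and 12.5% of each empty-vector library. Set beside the 7.85% of windows on the chromosome, the betaTC3 share lay close to the share of windows and the alphaTC1 shares lay above it. The betaTC3 shares did not overlap with the alphaTC1 shares.

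In 5 Mb bins counted from the start of the chromosome the low level was not even. Of 25 bins with windows, 23 held at least 5 strong windows. All 23 bin medians of betaTC3 minus empty vector lay below the median of all strong windows, as did 187 of 441 bins (42.4%) on the other chromosomes. The medians ran from -1.16 in bin 1 to -0.22 in bin 10, a range of 0.94. Bins 1 to 7 had medians from -1.16 to -0.91 where they held enough windows, bins 10 to 17 from -0.42 to -0.22, and bins 19 to 25 from -1.09 to -0.90. Bin 9 at -0.57 and bin 18 at -0.57 lay between these levels. Of all 464 bins of the genome, 45 had a median at or below -0.8, a limit set after the values were seen, and 13 of the 45 were on chromosome 11. Chromosome 1 held 9 and chromosome 7 held 7.

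**Figure D1:**
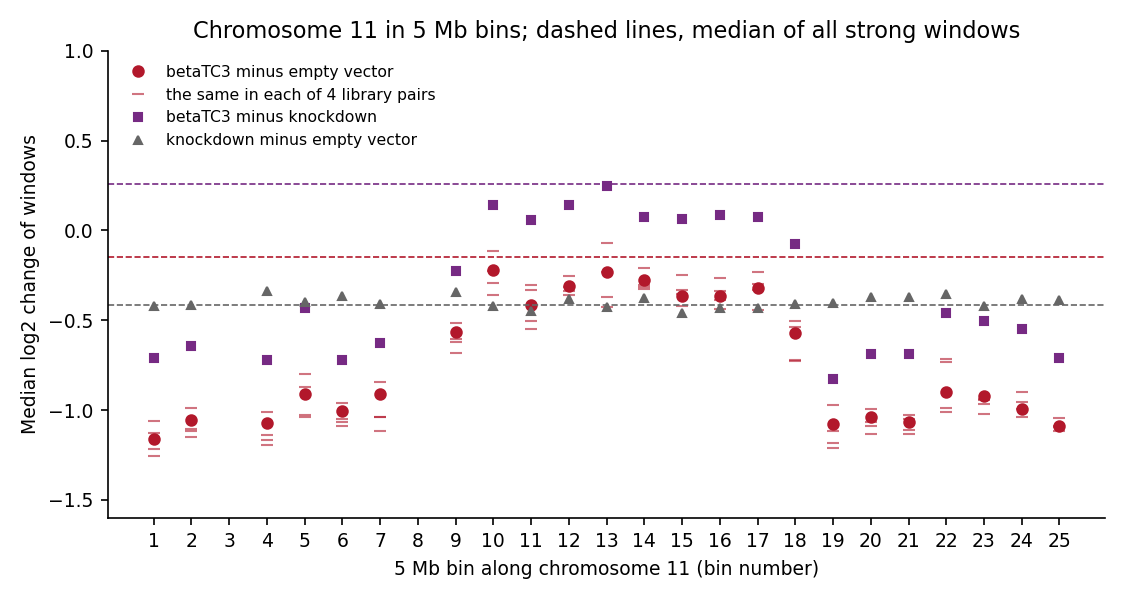
Median log2 change of strong windows in 5 Mb bins of chromosome 11, by bin number, for betaTC3 minus empty vector (red circles, with dashes for the 4 library pairs), betaTC3 minus knockdown (purple squares) and knockdown minus empty vector (grey triangles). Dashed lines mark the median of all strong windows in each contrast. Both betaTC3 contrasts stand higher in bins 10 to 17 than in bins 1 to 7 and 19 to 25, and the knockdown contrast stays between -0.46 and -0.34.

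The bins and the single windows were read as steps. A piecewise constant median was fitted to the 955 strong windows in order, with a break kept while it lowered the summed absolute deviation by at least 5%. The first break lowered it by 7.84%, the second by 5.78% and a further break by 0.23%, so 2 breaks were kept and 3 segments result. The proximal segment held 227 windows, 154 of them strong, and its median change was -1.04 (quartiles -1.32 and -0.71). The middle segment held 554 windows, 396 strong, with a median of -0.34 (quartiles -0.53 and -0.06). The distal segment held 604 windows, 405 strong, with a median of -1.03 (quartiles -1.35 and -0.77). As ratios of betaTC3 to empty vector the segment medians are 0.486, 0.790 and 0.491. The outer segments were alike in level and the middle one stood apart from both, and the quartiles of the middle segment do not meet those of the outer ones. Over the 4 library pairs the median ran from -1.13 to -0.96 in the proximal, from -0.43 to -0.25 in the middle and from -1.10 to -0.97 in the distal segment. The pairs of the middle segment did not overlap with those of the outer segments. The segments were cut on these same values and the pairs share libraries, so the separation describes the fit and is no separate support for it.

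**Figure D2:**
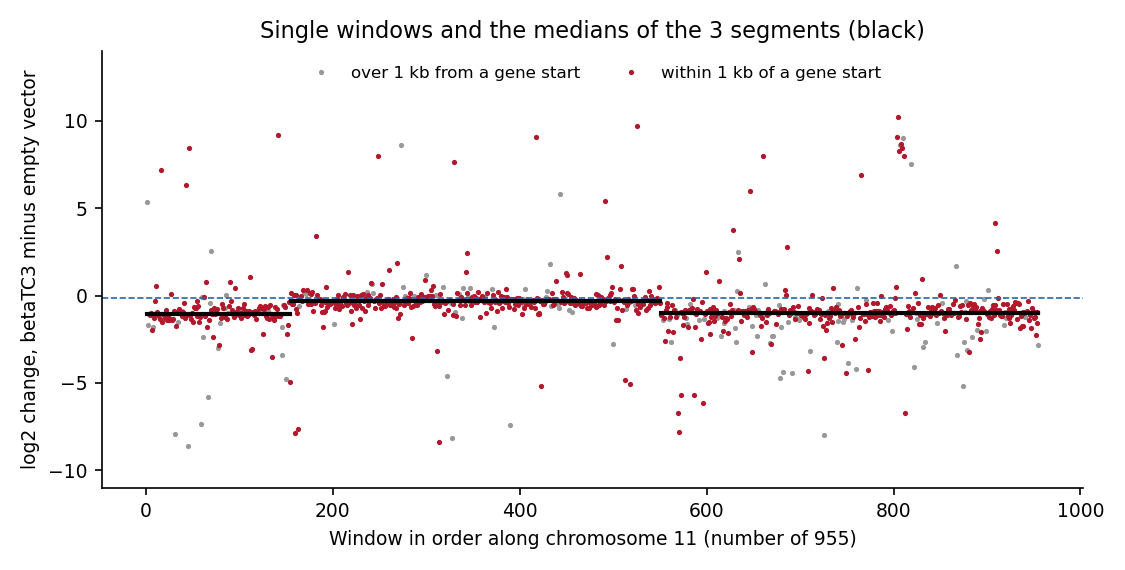
log2 change, betaTC3 minus empty vector, of the 955 strong windows in order along chromosome 11, with windows within 1 kb of a gene start in red and the others in grey, the medians of the 3 segments in black and that of all strong windows as a dashed line. Most windows lie near the median of their segment, and the highest single window, at Gna13, reaches a change of 10.19.

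Most strong windows of a segment lay near its median, which was fitted to these same values. In the proximal segment 104 of 154 strong windows (67.5%) lay within 0.5 of the segment median, in the middle 298 of 396 (75.3%) and in the distal segment 258 of 405 (63.7%). On all other chromosomes 59.4% of strong windows lay within 0.5 of 1 pooled median, which was not fitted by segment. The like share for chromosome 11, around its own single median, was 56.8% (542 of 955). The bands of the middle and outer segments overlap, so some windows would count for both levels. Changes below 0 were measured for 141 (91.6%), 313 (79.0%) and 371 (91.6%) strong windows in the proximal, middle and distal segment, against 57.7% on all other chromosomes. Windows within 1 kb of a gene start had medians of -1.04, -0.34 and -0.99 in the 3 segments, and windows farther away -1.38, -0.34 and -1.36. With windows split into 3 classes by mean level, those of the highest class had medians of -1.04, -0.28 and -0.94. Promoters matched to strong windows in the 3 segments held a median of 22, 24 and 23 CG dinucleotides (100, 275 and 233 windows). Over these 608 windows, the Spearman correlation of CG count with departure from the segment median was 0.203. The median CG count was 25 at the 15 windows at least 2 above the segment median and 16 at the 15 at least 2 below. Whether base composition bears on the change was not tested.

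The first break fell between the windows at Ccnjl and Pwwp2a, chr11:43528787-43682281 (mm10, GRCm38). Slu7, a splicing factor of the second step of the reaction, was the next window on the proximal side. It held 719 and 741 scaled reads in betaTC3, 751 and 901 in the knockdown, and 884 and 1048 in the empty vector, a change of -0.40. The Ccnjl window held 6.39 and 2.85 scaled reads in betaTC3, 140 and 154 in the knockdown, and 163 and 170 in the empty vector, a change of -4.97 that lies far below the median of its segment. On the middle side, Pwwp2a held 1130 and 373 scaled reads in betaTC3, 325 and 421 in the knockdown, and 630 and 533 in the empty vector. Its betaTC3 replicates differed more than the groups did. Ttc1, a tetratricopeptide adaptor, held 601 and 584 in betaTC3, 677 and 713 in the knockdown, and 780 and 854 in the empty vector, a change of -0.46. The change was thus about as small before the break at Slu7 as after it at Ttc1, and the place of the first break was loose. Nudcd2, a chaperone partner of dynein, 40733928 to 40734328, was also close to the middle level at -0.57. The library pair of betaTC3 replicate 2 and empty-vector replicate 1 put the break at 46.2 Mb, the other 3 pairs at 43.6 Mb, and windows with a mean of at least 300 put it at 38.7 Mb. All these places come from fits with 2 breaks. In the 2 pairs with betaTC3 replicate 1, only 1 break met the 5% rule.

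The second break was placed alike in each of the 4 library pairs, between Rad51c and the small nuclear RNA gene Rnu1a1, chr11:87404465-87422249. Ppm1e, a neuronal phosphatase, held 1203 and 1014 scaled reads in betaTC3, 620 and 738 in the knockdown, and 780 and 822 in the empty vector. Rad51c held 324 and 322 in betaTC3, 306 and 361 in the knockdown, and 402 and 475 in the empty vector, a change of -0.44. Past the break, Rnu1a1 held 109 and 93.3 in betaTC3, 209 and 187 in the knockdown, and 209 and 234 in the empty vector. U1 genes occur in near-identical copies, so its reads may come from other loci. Mtmr4, a phosphoinositide phosphatase, held 743 and 716 in betaTC3, 919 and 1146 in the knockdown, and 1427 and 1452 in the empty vector, a change of -0.98. On the distal side betaTC3 was below all 4 alphaTC1 libraries at both windows. At Rad51c it was below the empty vector and within the range of the knockdown.

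The strongest gene-start window of each bin, picked by its mean over the 6 libraries, 4 of them from alphaTC1, shows the steps in scaled reads. These landmarks come from the same windows that chose the chromosome and set the breaks. They describe the segments and are no separate support for them. Nf2 in bin 1 held 1295 and 1221 scaled reads in betaTC3, 1710 and 2268 in the knockdown, and 2911 and 2790 in the empty vector. Npm1, the nucleolar chaperone nucleophosmin, held 1421 and 1433 in betaTC3, 2040 and 2626 in the knockdown, and 3140 and 3281 in the empty vector. Across the 9 proximal landmarks, both betaTC3 libraries lay below both empty-vector libraries in 9 and below all 4 alphaTC1 libraries in 8, and the changes ran from -1.41 to -0.57.

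Eif4a1 in the middle segment held 2114 and 2017 scaled reads in betaTC3, 1437 and 1972 in the knockdown, and 2247 and 2305 in the empty vector. Pfn1, the actin-binding profilin, held 1815 and 1611 in betaTC3, 1038 and 1403 in the knockdown, and 1728 and 1760 in the empty vector. Among the 8 middle landmarks the changes ran from -0.32 to 0.13. Both betaTC3 libraries lay below both empty-vector libraries in 4, and in 0 of 8 below the knockdown libraries.

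Rpl19 in the distal segment held 1921 and 1692 scaled reads in betaTC3, 2074 and 2854 in the knockdown, and 3013 and 3122 in the empty vector. Cyth1, an exchange factor of ARF GTPases, held 958 and 984 in betaTC3, 1739 and 2281 in the knockdown, and 2976 and 3055 in the empty vector, the lowest of the distal landmarks with a change of -1.63. The 8 distal landmarks ran from -1.63 to -0.67, and betaTC3 lay below both empty-vector libraries in 8 of 8 and below all alphaTC1 libraries in 7. The ranges of the outer landmarks did not meet that of the middle ones.

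**Figure D3:**
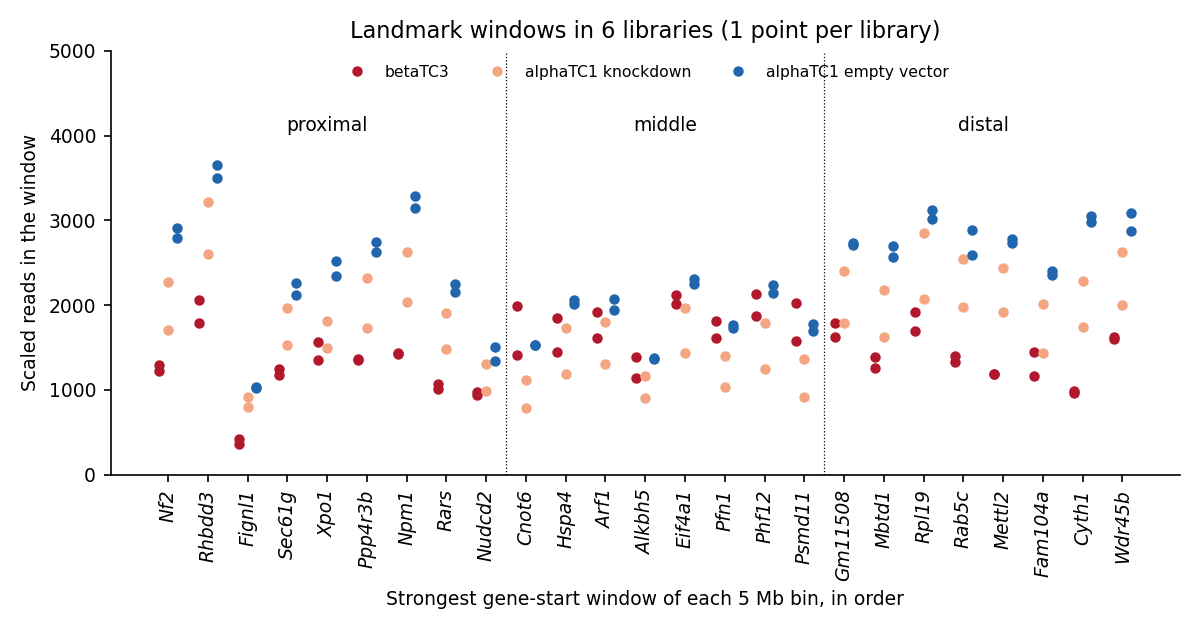
Scaled reads of the strongest gene-start window of each 5 Mb bin in the 6 libraries, in order along the chromosome, with dotted lines at the 2 breaks. BetaTC3 (red) lies below the empty vector (blue) at all 17 proximal and distal landmarks and lies below both of its libraries at 4 of the 8 middle ones.

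Levels within each library were also taken, which compares different windows of 1 library and not the same windows between lines. The median of each segment was taken less the median of all strong windows of the same library, so that no library was divided by another. In betaTC3 the proximal segment stood at 0.02 and 0.10, the middle at 0.19 and 0.22, and the distal at -0.03 and 0.03 on the log2 scale. In the knockdown libraries the same segments stood at 0.94 and 0.91, at 0.39 and 0.38, and at 0.93 and 0.90. In the empty-vector libraries they stood at 0.97 and 0.94, at 0.41 and 0.45, and at 0.93 and 0.91. The outer segments were thus higher than the middle one by about the same amount in all 4 alphaTC1 libraries, whichever vector they carried. In betaTC3 the middle segment stood slightly above both outer ones. Strong windows were chosen by a mean over the 6 libraries, 4 of them from alphaTC1, which favours windows high in that line. By reads, the proximal segment took 1.30% of window reads in betaTC3, 2.31% in the knockdown and 2.30% in the empty vector (group means of 2 libraries). The middle segment took 3.78%, 4.09% and 4.13%, and the distal segment 3.46%, 6.15% and 6.04%, in the same groups. The share in betaTC3 was 0.563 of that in the empty vector in the proximal, 0.914 in the middle and 0.573 in the distal segment. Every segment's SD over 2 libraries was at most 0.060 percentage points.

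**Figure D4:**
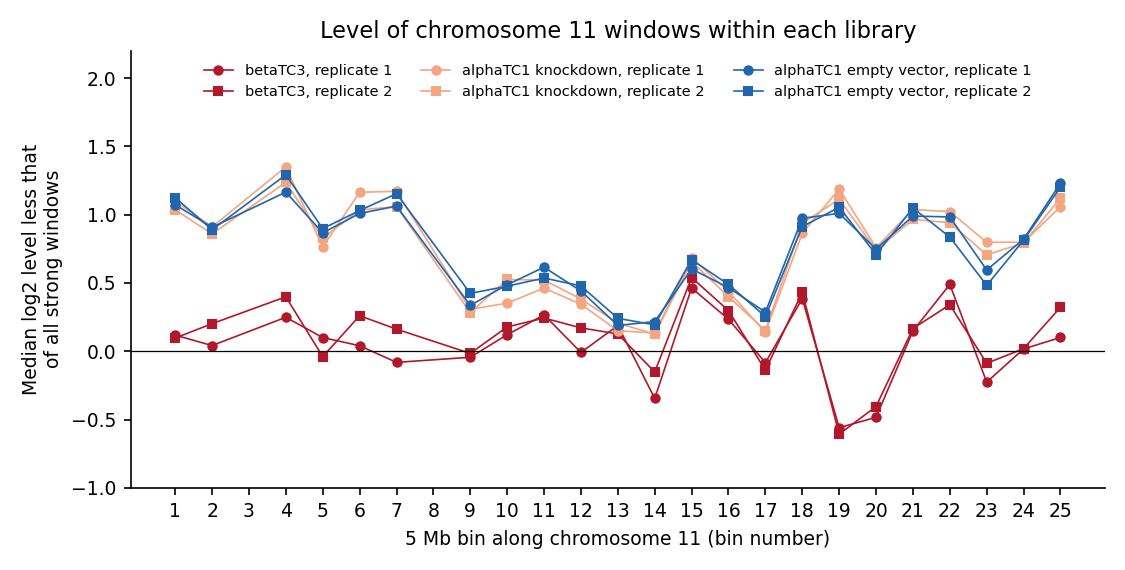
Median log2 level of strong windows in each 5 Mb bin of chromosome 11, less the median of all strong windows of the same library, for the 6 libraries. In bins 19 to 25 the betaTC3 libraries lie between -0.61 and 0.49 and the empty-vector libraries between 0.48 and 1.23, and in bins 10 to 17 betaTC3 lies between -0.35 and 0.54 and the empty vector between 0.19 and 0.67.

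In the number of breaks kept, chromosome 11 differed from chromosomes 12 and 14, the pair that stood highest. The same fit kept 0 breaks on chromosome 12, whose bin medians had quartiles of 0.36 and 0.52 and ran from 0.08 to 0.64. It kept 0 on chromosome 14, with quartiles of 0.43 and 0.71. The bin medians of chromosome 14 ran from -0.42 to 1.33, a wider span than on chromosome 11. It kept 1 break on chromosome 1, with medians of -1.02 and -0.33, and 1 on chromosome 7, with medians of -0.73 and -0.11. Chromosome 9 also had 2 breaks and a low, high and low order, with medians of -0.66, 0.03 and -0.68, and chromosome 2 had 2 breaks with medians of -0.33, 0.21 and -0.66, so 3 segments were not particular to chromosome 11. In the empty-vector libraries chromosome 11 stood at 0.63 over the median of all strong windows, the highest of the 20 chromosomes, and in betaTC3 at 0.11. These comparisons use the values that picked the chromosome and carry no test.

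**Figure D5:**
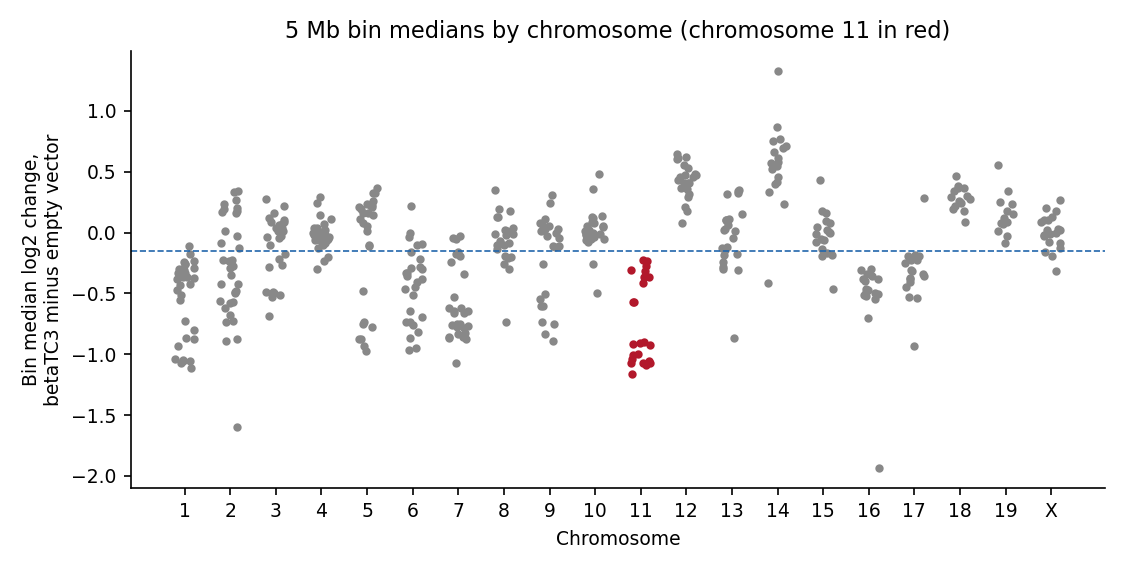
Bin medians of betaTC3 minus empty vector (log2) for all 5 Mb bins with at least 5 strong windows, by chromosome, with chromosome 11 in red and the median of all strong windows dashed. The 23 bins of chromosome 11 fall into a group between -0.57 and -0.22 and a group between -1.16 and -0.90. Those of chromosomes 12 and 14 lie mostly above 0, from 0.08 to 0.64 and from -0.42 to 1.33.

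By limma, betaTC3 and the empty vector differed at 994 of the 1385 windows, 211 higher and 783 lower in betaTC3 (adjusted p below 0.05), against 55.2% of all windows called in either direction, 22.1% higher and 33.2% lower. The lower calls numbered 157 (69.2% of its windows) in the proximal, 178 (32.1%) in the middle and 448 (74.2%) in the distal segment. On all other chromosomes 31.2% of windows were lower, close to the share in the middle segment. Against the knockdown, 841 windows were called, 253 higher and 588 lower in betaTC3, beside 60.6% of all windows, 36.6% higher and 24.0% lower. Since these contrasts chose the chromosome or share the betaTC3 libraries with it, the counts are a description. The median change of betaTC3 minus knockdown was -0.68 in the proximal, 0.10 in the middle and -0.67 in the distal segment, where all strong windows had a median of 0.26. Less the median of all strong windows in the same contrast, the segments stood at -0.94, -0.16 and -0.93 against the knockdown and at -0.89, -0.19 and -0.88 against the empty vector. The scaling moves these calls. EdgeR's TMM called 6225 of all windows higher and 5743 lower in betaTC3 than in the empty vector, where limma called 3893 higher and 5851 lower, and on chromosome 11 it called 250 higher and 805 lower.

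Genes of islet metabolism and signalling from a list held 9 windows within 1 kb of 8 gene starts, 2 higher and 6 lower in betaTC3. Among all 913 gene-start windows of chromosome 11, 11.8% were higher and 56.1% lower, and each list's counts are to be read beside these shares. The lower share differed between segments, at 69.2%, 32.1% and 74.2% of all windows in the proximal, middle and distal one. A list's count thus also depends on where its windows lie. Kcnip1, a modulator of voltage-gated potassium channels, had 568 and 591 scaled reads in betaTC3 and 0 in all 4 alphaTC1 libraries. It lies in the proximal segment and went against its level. Grb10, an adaptor that binds the insulin receptor, had 2 windows, with means of 0.476 in betaTC3 at each, and of 46.7 ± 4.26 and 38.7 ± 4.23 in the empty vector (SD, n = 2). In the distal segment, Acly, the citrate lyase of fatty acid synthesis, stood at -0.84 and G6pc3, a glucose-6-phosphatase, at -1.52. Prkca, the protein kinase C alpha gene, held 843 and 889 in betaTC3, 1370 and 1547 in the knockdown, and 1680 and 1791 in the empty vector.

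Ribosomal protein genes held 13 windows, all of them strong. By limma 9 of the 13 were lower and 0 higher in betaTC3, beside 56.1% lower and 11.8% higher among all gene-start windows of the chromosome, and the 9 that lie in the distal segment had changes from -1.29 to -0.77 with a median of -1.08. The 4 in the middle segment had changes from -0.25 to -0.01, and 1 of the 4, Rps6kb1, encodes the S6 kinase and not a ribosomal protein. Mrpl12, a protein of the mitochondrial large subunit, held 1283 and 1264 scaled reads in betaTC3, 1919 and 2407 in the knockdown, and 2672 and 2757 in the empty vector. Rpl26, in the middle segment, averaged 915 ± 3.50 in betaTC3, 859 in the knockdown and 1074 ± 70.1 in the empty vector (SD, n = 2).

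Vesicle and exocytosis genes had changes from -0.74 to 0.35 (median -0.31) at the 6 windows of the middle segment and from -1.09 to -0.41 (median -1.005) at the 5 of the distal one. The ranges overlap, with Unc119 at -0.74 in the middle segment and Sec14l1 at -0.52 in the distal one. Vamp2, the vesicle SNARE of insulin granules, averaged 1422 ± 118 scaled reads in betaTC3 and 1535 ± 43.2 in the empty vector. Nsf, the ATPase that takes SNARE complexes apart, averaged 781 ± 36.7 in betaTC3 and 1602 ± 117 in the empty vector. Of the 11 windows 5 were lower and 0 higher, a lower share that does not exceed the 56.1% of all gene-start windows. For splicing and RNA processing genes the medians were -0.74, -0.31 and -0.85 in the proximal, middle and distal segment over 3, 3 and 6 windows. Prpf8, the core of the spliceosome, stood at -0.31 in the middle segment in betaTC3 minus empty vector. Eftud2, its GTPase partner in the distal segment, averaged 777 ± 4.61 scaled reads in betaTC3 and 1561 ± 111 in the empty vector (SD, n = 2).

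Chromatin regulators held 20 windows, 1 higher and 9 lower in betaTC3 (11.8% and 56.1% of all gene-start windows), with a median of -0.13 over 7 strong windows of the middle segment and -0.81 over 11 of the distal one. The Polycomb genes Cbx2 and Cbx8, in the distal segment, stood at -0.71 and -0.83, Cbx1, which encodes an HP1 protein that reads the mark, at -0.81, and Suz12, a subunit of the Polycomb methyltransferase, at -0.11 in the middle segment. Chd3, a remodelling helicase of the middle segment, stood at 2.41, with 547 ± 314 scaled reads in betaTC3 and 93.6 ± 10.7 in the empty vector. Cell cycle and genome stability genes had a median of -0.21 over 11 windows of the middle segment, among them Trp53 (the p53 tumour suppressor) at -0.51 and Aurkb (a mitotic kinase) at 0.14, and of -0.79 over 7 of the distal one. In all, 2 of their 21 windows were higher and 11 lower, close to the 11.8% and 56.1% of all gene-start windows.

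Developmental transcription factors held several windows far from their segment. Of 15 windows 1 was higher and 9 lower in betaTC3, close to the 56.1% lower of all gene-start windows. Lhx1 held 830 and 835 scaled reads in betaTC3 and 0 in the 4 alphaTC1 libraries. Sox9 averaged 4.38 ± 0.541 in betaTC3 and 573 ± 39.3 in the empty vector, Dlx4 1.35 ± 0.781 and 164 ± 13.5, and Ebf1 0 in both betaTC3 libraries and 228 ± 0.306. Meis1, a homeobox cofactor, averaged 109 ± 2.45 in betaTC3 and 799 ± 64.9 in the empty vector, and Nr1d1, the clock repressor REV-ERBalpha, 221 ± 11.4 and 1520 ± 59.4. Stat3, Stat5b and Thra stayed with their segment at -1.13, -0.61 and -1.02. Zinc finger genes, known targets of this mark elsewhere, held 17 gene-start windows, 16 of them in the middle segment, with 10 lower and 0 higher. Of all gene-start windows of the chromosome 56.1% were lower and 11.8% higher. Of all windows of the middle segment, at any distance from a gene start, 32.1% were lower and 18.2% higher, a set unlike the gene-start windows. The median was -0.48 over 13 strong zinc finger windows of the middle segment, where all strong windows had -0.34. The lowest of these 13 stood at -1.78. Zfp454, not among them, stood at -5.76 with 2.30 ± 2.13 scaled reads in betaTC3 and 158 ± 14.1 in the empty vector. Of the 7 windows of a list of chemokine, schlafen and interferon-induced genes, 2 were higher and 1 lower, beside 11.8% higher and 56.1% lower among all gene-start windows. Igtp, a GTPase of cell-autonomous defence, was among the higher ones at 0.70. Irgm1, of the same family, at 0.30 and Slfn9 at -0.26 did not pass the test.

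Several large gene families with tissue-restricted expression were nearly without windows. Of the 10 Hoxb genes, 0 had a window or a peak of any library within 1 kb, by RefSeq coordinates. The same held for 11 Ccl chemokine genes and for 6 muscle myosin heavy chain genes. A window lay at 2 of 27 type I keratin genes and at 1 of 83 olfactory receptor genes. Over all 1609 protein-coding genes of the chromosome, 1047 (65.1%) had a window within 1 kb.

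Some windows stood far off their segment, and they were found in each. In the proximal segment 7 strong windows lay at least 2 log2 units above and 10 at least 2 below the segment median, in the middle 13 and 12, and in the distal segment 20 and 24. The largest changes were at Gna13, Lhx1, Kcnip1, Axin2, Rtn4rl1 and Prkar1a. The window at Gna13, which encodes a G protein alpha subunit, held 1170 scaled reads in each betaTC3 library and 0 in all 4 alphaTC1 libraries. At a floor of 3 reads per library, the betaTC3 mean was at least 353-fold higher than the empty vector for Gna13, 251-fold for Lhx1 and 175-fold for Kcnip1. Axin2, a scaffold of WNT signalling, had 1 read and Prkar1a, the regulatory subunit of protein kinase A, 3 reads in the pooled empty-vector libraries, against 1985 and 2808 in betaTC3. Gna13, Axin2 and Prkar1a belong to a run of 17 adjacent windows, 108921161 to 110479924, that had at most 3 reads in every alphaTC1 library.

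The most negative changes were at windows assigned to Ykt6, Arhgap44, Arhgef15, Arl4d, Gm25142 and Ebf1. Arhgap44 held 0.799 and 1.90 scaled reads in betaTC3, 508 and 618 in the knockdown, and 765 and 766 in the empty vector. Ebf1, a B cell and fat cell factor, held 0 in betaTC3, 170 and 177 in the knockdown, and 228 and 228 in the empty vector, at least 86.8-fold lower at the same floor. The Ykt6, Arhgef15 and Arl4d windows lie 50761, 10527 and 30570 bp from the start of those genes, so the names only mark the place. Windows were also counted by a strict rule, at least 100 scaled reads in every library of 1 line and at most 3 reads in every library of the other. Nearly empty windows with a few more reads do not count. By this rule, windows with signal in betaTC3 and not in alphaTC1 made up 36 (2.60%) of the chromosome's windows and 2.45% of those elsewhere. Those with signal in alphaTC1 and not in betaTC3 made up 11 (0.794%) and 0.498%.

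The authors called peaks per library. Chromosome 11 held 7.68% to 7.76% of the peaks of each list. Of the peaks of the empty-vector libraries in the middle segment, 88.2% and 86.4% overlapped a peak of both betaTC3 lists by at least 1 bp, against 78.2% and 74.5% in the proximal and 69.1% and 70.9% in the distal segment. Of the betaTC3 peaks, 83.9% to 85.9% overlapped both empty-vector lists in every segment. The median fold over background, the authors' own value, of betaTC3 peaks was 27.3 and 24.0 in the middle, 25.3 and 21.4 in the proximal and 24.6 and 21.4 in the distal segment. That of empty-vector peaks was 42.2 and 42.5 in the middle, 37.7 and 35.9 in the proximal and 32.3 and 33.0 in the distal segment, an order opposite to that of the read levels in the empty vector, where the outer segments were higher.

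Knockdown minus empty vector did not enter the choice of the chromosome and was tested. Of the 1385 windows 0 were called by limma (smallest adjusted p = 0.0641), with 0 of 17641 called over all windows (0%), and 485 chromosome 11 windows had an unadjusted p under 0.05, beside 6169 of all 17641 windows, the same share. EdgeR called 0 of the windows, and DESeq2 called 2 of the 1014 to which it gave an adjusted p. ChIP values do not measure the knockdown of Smndc1 itself. The smallest adjusted p among lower windows belonged to windows assigned to Grn (the growth factor progranulin), Gm11959 and Tmem220, and among higher ones to Gm11729, Gm29292 and Bcl6b. Grn held 0 scaled reads in both knockdown libraries and 14.6 and 9.77 in the empty vector (adjusted p = 0.0641 by limma), a low level in both groups.

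The profile of this contrast varied less between bins. Medians of window changes ran from -0.46 to -0.34, a range of 0.12, against 0.94 for betaTC3 minus empty vector, and the segment medians were -0.40, -0.43 and -0.38, where all strong windows had -0.42. The bin medians taken per library and fitted by limma spread more, from -0.56 in bin 25 to -0.23 in bin 23. In that fit 16 of the 23 chromosome 11 bins were lower in the knockdown (smallest adjusted p = 0.0412) and 0 higher, against 60.3% of all 464 bins. With each library centred on its median, 0 bins were called on chromosome 11, and the shift of -0.42 over all strong windows is the level the bins follow. The count also rested on single libraries: it was 0 without any 1 of the betaTC3 or empty-vector libraries or knockdown replicate 1, and 23 without knockdown replicate 2, which leaves 1 knockdown library whose spread is taken from the other groups.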

How the data were processed

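The deposited table of windows holds 1 signal (coverage) value per library for each window. In every library all values were whole multiples of 1 step within a tolerance of 0.001 (100% of values), so they are whole reads times a scaling factor of the authors, and neither the origin of the factors nor a subtraction of input is described in the labels or headers. Tools listed in the submitters' processing notes are MACS2 2.2.7.1, Picard 2.19.2 and Bowtie2 2.4.1, and the listed build is mm10 (GRCm38). The authors' peak lists, 1 per library, carry a ratio (fold over background) and a −log10 q-value per peak, and only position and fold were used here.

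Since the values are scaled, limma 3.58.1 (R 4.3.3) was run on log2(scaled reads + 1) with an intensity trend, all 6 libraries in 1 model, and Benjamini-Hochberg adjustment over 17641 windows or, for bin medians, 464 bins. The limma fits of windows and of bins were tested on simulated data. edgeR 4.0.16 (quasi-likelihood, TMM) and DESeq2 1.42.0 on the whole reads were alternatives. Bins were 5 Mb wide by window midpoint, with medians over strong windows and at least 5 of them. Segments came from dynamic programming on absolute deviations, with at least 20 windows each and up to 4 breaks. Depth was 4530066 to 9924487 reads in windows, and floors cover counting error only. Promoters are RefSeq sequences of GRCm38.p6. Python 3.11.15, pandas 2.3.3, numpy 2.4.6, scipy 1.17.1 and matplotlib 3.10.9 were used.

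The chromosome, gene lists and tests were chosen with earlier results of these data known. Named windows were the strongest gene-start window of each bin, the 6 largest and 6 smallest changes among called windows with no overlap of the groups, the 2 windows on each side of a break, list members, and the 3 smallest adjusted p per direction for the knockdown. Other named windows were chosen after their values were seen. Some list members are not reported here.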

Additional observations from a re-analysis of the deposited data

How the results depend on the processing

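The median change of chromosome 11 kept its sign under every alternative tried. It was -0.55 with libraries centred on their medians and ran from -0.86 to -0.65 with a library left out. The range of the bin medians was 14.1 with bins of 2.5 Mb, 0.857 with bins of 10 Mb, 1.73 with no filter on level and 1.07 with the knockdown in place of the empty vector, and 0.90 to 0.99 with libraries left out. The share of bins below the median of all strong windows was 95.2% with bins of 2.5 Mb and 96.0% with no filter. Segments kept 2 breaks except in pairs of 1 betaTC3 and 1 empty-vector library, which kept 1 to 2. In fits of these pairs with 2 breaks, the first break lay at 43.6 to 46.2 Mb. A mean of at least 300 put the breaks at 38.7 and 87.5 Mb. With the knockdown in place of the empty vector the medians were -0.68, 0.10 (reversed in sign) and -0.67, while all strong windows moved to 0.26. Over pairs they were -1.13 to -0.96, -0.43 to -0.25 and -1.10 to -0.97.

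Knockdown minus empty vector called 2 windows by DESeq2, 11 without trend, 2 with only the 2 groups fitted, 23 with a pseudocount of 0.1, and 0 to 554 with a library left out, 554 without knockdown replicate 2. Its called bins numbered 6 with no filter, 0 centred, 0 with the replicate block and 0 to 23 with a library left out. With the replicate block the betaTC3 counts were 941 against the empty vector and 780 against the knockdown, and the numbers do not pair the libraries, since same-numbered ones did not deviate together (correlations of 0.085, -0.176 and -0.0079). The causes were not tested.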

Other observations

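Of 42 bins of 2.5 Mb with at least 5 strong windows, the lowest and the highest stood far from the next ones, at -1.56 and 0.06, and both were noticed after the values were seen. The lowest, with a median of -5.68, holds a run of neighbouring windows in the distal segment that were nearly empty in betaTC3 and held reads in alphaTC1. Pctp, a phosphatidylcholine transfer protein (90002456 to 90002856), held 16.8 and 10.5 scaled reads in betaTC3, 972 and 1189 in the knockdown, and 1443 and 1521 in the empty vector. Tmem100, a membrane protein of vessel development, held 5.59 and 2.85 in betaTC3, 871 and 1048 in the knockdown, and 1059 and 1239 in the empty vector. Hlf, a PAR bZIP transcription factor of the clock output, held 26.4 and 21.9 at its start in betaTC3, 1019 and 1117 in the knockdown, and 1244 and 1323 in the empty vector. Mmd, between them, was higher in betaTC3 than these at 162 and 151, against 1136 and 1458 in the knockdown and 1785 and 1907 in the empty vector. Cox11, a copper chaperone of cytochrome c oxidase at the far end, returned to the segment level at -0.94, with 1255 and 1101 in betaTC3, 1481 and 1870 in the knockdown, and 2137 and 2371 in the empty vector. The highest, with a median of 8.44, is the bin of Axin2, Gna13 and Prkar1a. The bins of 5 Mb did not show either.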
